A study of Mus musculus with 11 samples.

Results

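Ciart, Bhlhe40 and Bhlhe41 are 3 genes that encode repressors of the circadian clock, taken by symbol from the 24411 genes counted in every library. Their read counts were compared over 11 RNA-seq libraries from mice aged 8 to 10 weeks. The groups were neurospheres labelled Bmal1-/- (3 libraries), wild-type neurospheres (3), corpus callosum labelled Bmal1-/- (2) and wild-type corpus callosum (3). The corpus callosum is a bundle of largely myelinated axons between the brain's hemispheres. Neurospheres are floating clusters of stem and progenitor cells, here cultured for 1 week from the subventricular zone with EGF (20 ng/ml) and heparin (2 ug/ml) added. The labels describe the mutants only as Bmal1-/- and name no deleted exon, strain, sex or time of day. Separate animals or cultures per library are not stated, so the p-values reflect library-to-library spread that may be technical.

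The clock runs on a loop in which BMAL1 and CLOCK bind E-boxes in DNA and switch on genes whose products then repress the pair. The PER and CRY proteins are the best-known repressors, and the products of Ciart, Bhlhe40 and Bhlhe41 form further arms of the same loop. Ciart encodes CHRONO, which binds BMAL1 and lowers its activity. Bhlhe40 encodes DEC1 and Bhlhe41 encodes DEC2, paralogous repressors of the basic helix-loop-helix Orange family that occupy E-boxes themselves. Transcription of all 3 is known to be driven in part by CLOCK and BMAL1, and DEC1 is also induced by hypoxia and by retinoic acid.

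Ciart lies at chr3:95878500-95882257 on the minus strand, Bhlhe40 at chr6:108660629-108666925 on the plus strand and Bhlhe41 at chr6:145858243-145865420 on the minus strand (GRCm38.p6, the assembly of mm10). The E-box hexamer CACGTG, which reads the same on both strands, was searched in the 250 bases before the RefSeq start. Promoter sequence was available for Ciart and Bhlhe41 only, so Bhlhe40 was not searched, and nothing is said of E-boxes near it. The 2 promoters are shown because E-boxes are the sites BMAL1 is known to bind. Both stretches are from RefSeq (GRCm38.p6), run 5′ to 3′ on the minus strand, stop before the outermost start annotated by RefSeq or GENCODE, and carry the E-box in capitals. The Ciart stretch is chr3:95882258-95882478 and the Bhlhe41 stretch is chr6:145865559-145865670.
Ciart: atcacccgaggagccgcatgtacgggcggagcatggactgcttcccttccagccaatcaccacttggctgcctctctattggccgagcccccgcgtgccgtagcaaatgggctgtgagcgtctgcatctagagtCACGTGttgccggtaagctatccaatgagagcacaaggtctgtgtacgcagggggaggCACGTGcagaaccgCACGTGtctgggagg
Bhlhe41: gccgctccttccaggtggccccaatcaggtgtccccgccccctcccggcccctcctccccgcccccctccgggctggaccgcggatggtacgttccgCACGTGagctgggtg
The Ciart promoter held 3 E-boxes, beginning 116, 58 and 44 bases before the start used in the RefSeq promoter table. That start lies 29 bases inside the outer end of the Ciart locus, from which the E-boxes begin 87, 29 and 15 bases upstream. Bhlhe41 held 1, beginning 153 bases before its start, which is the end of its RefSeq locus. GENCODE places the outer end of Bhlhe41 further upstream, at base 145865558, so the E-box lies nearer to that end. Of 32851 mouse promoter windows of the same length, 6.02% held at least 1 CACGTG and 20, or 0.0609%, held at least 3. Of 14 other clock genes listed as E-box targets, 11 had a promoter in the table and 3 of these, Tef, Per1 and Cry1, held a CACGTG, none more than 1 in a window. Neither the related hexamer CACGTT, the nuclear receptor motif AGGTCA nor the D-box TTANGTAA, searched on both strands, was found in the window of Ciart or Bhlhe41. These motifs occurred in 3.85%, 14.0% and 2.06% of all windows. A match describes the sequence and shows no binding.

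**Figure D1:**
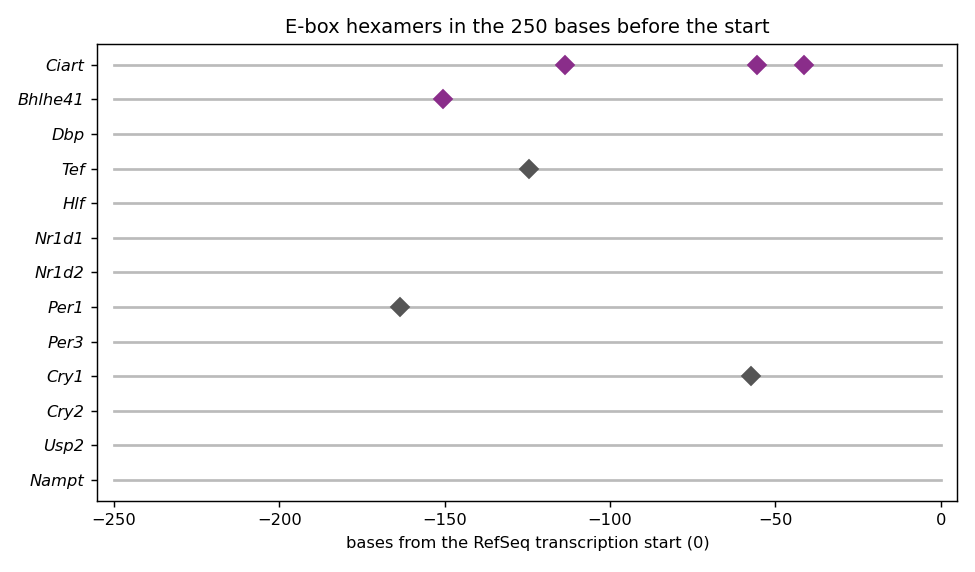
Positions of the E-box hexamer (diamonds) in the 250 bases before the transcription start of the RefSeq promoter table, in bases from that start, for Ciart and Bhlhe41 (purple) and the 11 other E-box clock genes with a promoter in the table (grey), using the first listed start of each gene. Ciart has 3 hexamers, Bhlhe41, Tef, Per1 and Cry1 have 1 each, and the other genes have none in this window.

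Gene counts summed to 17450270 to 19717848 per library. Arntl, the gene symbol of Bmal1, gave 44.1 ± 4.34 CPM (SD, n = 3) in neurospheres labelled Bmal1-/- and 44.5 ± 5.70 CPM (SD, n = 3) in wild type, where CPM is counts per 1000000 gene counts, with TMM scaling over the 11 libraries. In the callosum it gave 36.3 ± 5.64 CPM (SD, n = 2) in libraries labelled Bmal1-/- and 35.9 ± 3.38 CPM (SD, n = 3) in wild type. The targeted gene therefore gives no check of the labels, and every direction given follows the label. Of the 14 other clock genes listed as E-box targets, 12 had a log2 fold change below 0 in neurospheres and 9 in callosum. Among them Nr1d2 stood at 2.97 to 4.24 CPM in neurospheres labelled Bmal1-/- and 60.4 to 64.7 CPM in wild type. In callosum it stood at 1.19 and 2.21 CPM, against 11.9 to 12.1 CPM in wild type. What these values say of the genotypes was not tested. Myelin and proliferation markers fit the source labels. The sum of 8 myelin genes was 21495 to 33244 CPM in callosum and 1414 to 2368 CPM in neurospheres. That of 5 proliferation genes was 4.75 to 13.8 CPM in callosum and 685 to 1335 CPM in neurospheres. Callosum libraries also held 6719 to 9127 CPM of 7 neuronal genes. They held 8768 to 12010 CPM of 5 cortical neuron markers and 692 to 2230 CPM of 6 striatal ones. The share of tissue from outside the callosum was not tested. In neurospheres, replicate 1 labelled Bmal1-/- had 22.6% of its reads unmapped, the highest of all libraries.

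Ciart was the member that differed most by genotype, and it did so in the callosum. Its counts there were 43 and 27 reads in the libraries labelled Bmal1-/-, against 192, 207 and 205 reads in wild type. As levels these were 3.00 and 1.86 CPM in libraries labelled Bmal1-/-, against 13.2, 13.7 and 14.0 CPM in wild type. The wild-type libraries lay close together and the groups did not overlap. Ciart fell 5.54-fold, or -2.47 ± 0.22 on the log2 scale (SE, edgeR adjusted p = 0.00119). In this comparison edgeR called 129 of 14198 genes, 0.909%, and called 0.387% lower, so 1 of 3 members called stands beside that rate. Only 22 of the genes tested had a lower log2 fold change than Ciart. The call held when any 1 callosum library was left out (edgeR adjusted p = 0.00291 to 0.0201), although leaving out either library labelled Bmal1-/- leaves 1, assumed to vary like the wild-type libraries. It ended in a single model of all 11 libraries (adjusted p = 0.0609), with the log2 fold change at -2.49. The count of C920021L13Rik, a gene on the opposite strand that spans Ciart without sharing exon sequence, was 5 to 42 reads per library. In addition, 11.9% of the 50-base stretches of Ciart transcripts also occur in the pseudogene Gm9176, and the deposited tables list 0 multimapping reads.

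In neurospheres Ciart showed no such separation. Its levels were 6.29, 12.4 and 9.74 CPM in replicates 1, 2 and 3 labelled Bmal1-/-, against 5.82, 15.4 and 17.0 CPM in wild-type replicates 1, 2 and 3. Replicate 1 was the lowest library in both genotypes, and the groups overlapped, whereas 5.52% of genes tested in neurospheres had every library labelled Bmal1-/- below every wild-type one. The log2 fold change was -0.42 ± 0.42 (SE, edgeR adjusted p = 0.798), and ran from -0.77 without wild-type replicate 1 to -0.16 without wild-type replicate 3. The difference between the genotype differences, callosum minus neurospheres, was -2.06 ± 0.58 on the log2 scale. It did not pass over all 15322 genes (edgeR adjusted p = 0.782, unadjusted p = 0.00373), so a difference between the sources is not established. That interaction test called 2 genes in all, 0.0131%.

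Bhlhe40 was lower in the callosum libraries labelled Bmal1-/- without passing the test over all genes. Its levels were 52.7 and 50.8 CPM in libraries labelled Bmal1-/-, against 97.8, 67.7 and 71.6 CPM in wild type. The groups did not overlap, and wild-type replicate 1 stood highest. The log2 fold change was -0.60 ± 0.16 (SE, edgeR adjusted p = 0.16, unadjusted p = 0.00458). Without that wild-type library it was -0.41 ± 0.12 (SE, edgeR adjusted p = 0.168). In neurospheres the levels were 85.7, 263 and 247 CPM in replicates 1, 2 and 3 labelled Bmal1-/-, against 107, 361 and 376 CPM in wild type. Replicate 1 was again the lowest in each genotype, and the log2 fold change was -0.50 ± 0.54 (SE, edgeR adjusted p = 0.798). Leaving out replicate 1 labelled Bmal1-/- gave -0.14, and leaving out wild-type replicate 1 gave -0.89.

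Bhlhe41 had the smallest genotype difference of the 3 in the callosum. Its levels were 60.4 and 81.9 CPM in the libraries labelled Bmal1-/-, against 90.1, 92.2 and 90.2 CPM in wild type. The wild-type libraries again lay close together, and the groups did not overlap. The log2 fold change was -0.34 ± 0.13 (SE, edgeR adjusted p = 0.313). It was -0.57 ± 0.12 without replicate 2 labelled Bmal1-/- (adjusted p = 0.072) and -0.13 ± 0.12 without replicate 1 labelled Bmal1-/- (adjusted p = 0.763), so its size rests on which of these libraries is kept. In neurospheres Bhlhe41 stood at 32.8, 67.2 and 81.2 CPM in libraries labelled Bmal1-/-, against 48.4, 108 and 130 CPM in wild type. The log2 fold change was -0.66 ± 0.42 (SE, edgeR adjusted p = 0.798), with overlapping groups, and the same omissions gave -0.37 and -0.98. In neurospheres 1 of 13968 genes was called, 0.00716%, and none of the 3 members.

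**Figure D2:**
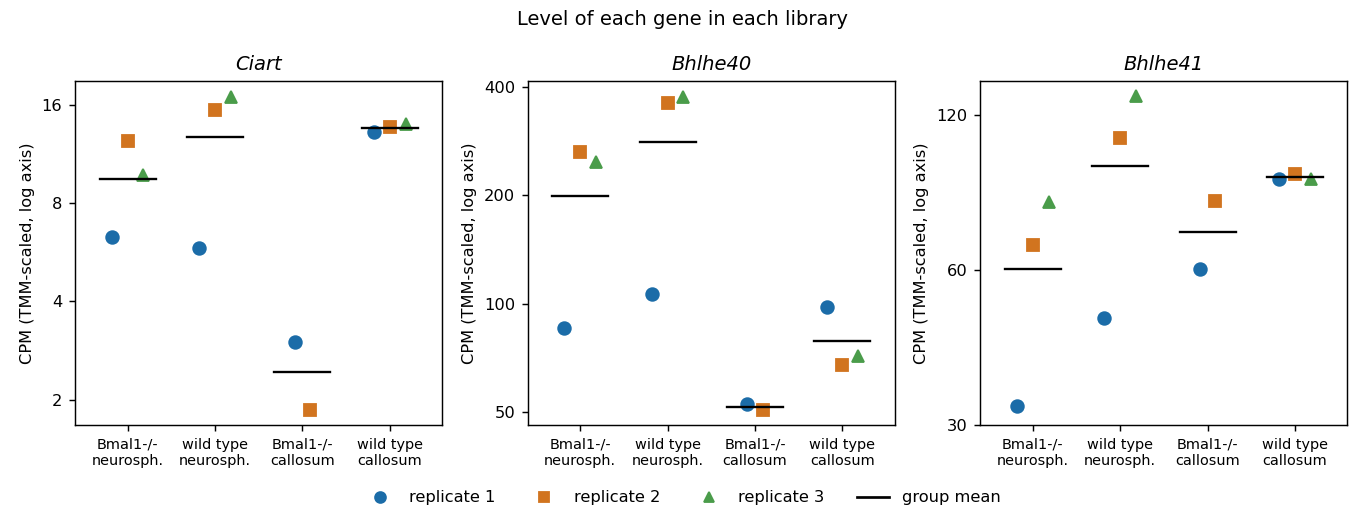
Level of Ciart, Bhlhe40 and Bhlhe41 in each of the 11 libraries, in TMM-scaled CPM on a log axis, by group, with symbols for the replicate number and a line at the group mean. Ciart in callosum labelled Bmal1-/- lies at 1.86 and 3.00 CPM, apart from 13.2 to 14.0 CPM in wild type, and replicate 1 is the lowest neurosphere library of each genotype in all 3 panels.

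All 3 members thus had every callosum library labelled Bmal1-/- below every wild-type one. The same order held for 18.7% of the 14198 genes tested there, so for Bhlhe40 and Bhlhe41 the separation alone is a common pattern. When the genotype difference was fitted over both sources with source as a term, Ciart stood at -1.20 ± 0.40, Bhlhe40 at -0.55 ± 0.32 and Bhlhe41 at -0.53 ± 0.25 (log2, SE). The edgeR adjusted p-values were 0.472, 0.541 and 0.508, and 21 of 15322 genes, 0.137%, were called, with 0.0783% of all genes called lower. An exact two-sided permutation test that exchanged genotype labels within each source gave p = 0.03 for Ciart, 0.25 for Bhlhe40 and 0.12 for Bhlhe41. Adjusted over these 3 tests the exact p-values were 0.09, 0.25 and 0.18, where 0.005 was the smallest p the 200 arrangements could give. Without wild-type neurosphere replicate 1, the low library of its group, the adjusted exact p-values were 0.015, 0.04 and 0.015. Without neurosphere replicate 1 labelled Bmal1-/-, the low library of the other group, they were 0.15, 0.58 and 0.435. Over all 11 libraries left out in turn, they ran from 0.015 to 0.24 for Ciart, from 0.04 to 0.58 for Bhlhe40 and from 0.015 to 0.435 for Bhlhe41. A missed threshold does not show that a member did not differ. The neurosphere spread alone gave standard errors of 0.42 to 0.54 on the log2 scale in the fit without a replicate block.

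**Figure D3:**
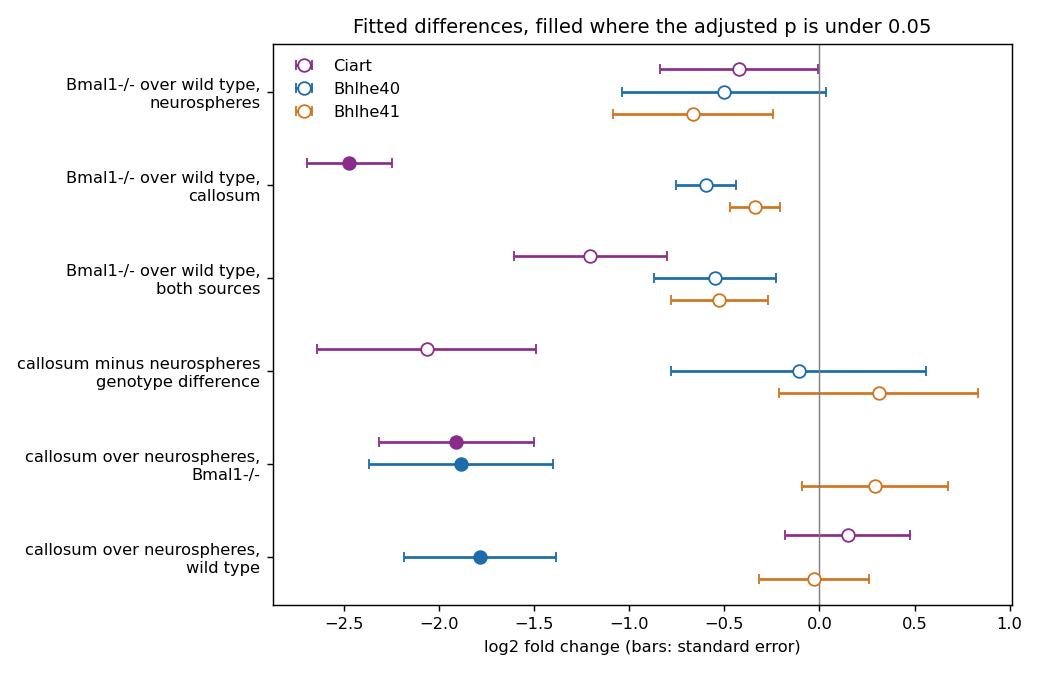
Fitted log2 fold changes of Ciart, Bhlhe40 and Bhlhe41 in 6 comparisons, with standard errors as bars and filled points where the edgeR adjusted p is under 0.05. In the genotype comparisons the single filled point is Ciart in the callosum at -2.47, and between sources Bhlhe40 is filled in both genotypes and Ciart in libraries labelled Bmal1-/-.

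Neurosphere replicate 1 was the lowest library of its genotype for all 3 members. The mean of replicates 2 and 3 was 2.98-fold above replicate 1 for Bhlhe40 in neurospheres labelled Bmal1-/- and 3.45-fold above it in wild type. For Bhlhe41 the folds were 2.26 and 2.46, and for Ciart 1.76 and 2.78. Replicate 1 was the lowest library of both genotypes for 3345 of the 13968 genes tested, 23.9%, and for 11 of the 14 E-box clock genes. Of 18 hypoxia targets, 7 had that order. Among them, named after their values were seen, Vegfa, a growth factor for blood vessels, stood at 1190, 2145 and 2070 CPM in replicates 1, 2 and 3 labelled Bmal1-/-, against 1175, 2726 and 3140 CPM in wild type. Ddit4, an inhibitor of mTOR signalling, stood at 136, 248 and 270 CPM in libraries labelled Bmal1-/-, against 67.8, 271 and 323 CPM in wild type. The remaining targets lacked that order, and Egln3 and Higd1a had replicate 1 highest in both genotypes. Egln3 stood at 195, 163 and 130 CPM in libraries labelled Bmal1-/-, against 180, 146 and 171 CPM in wild type. Higd1a stood at 78.3, 40.6 and 46.3 CPM, against 44.8, 38.4 and 43.4 CPM. Marker lists of cell types differed in their order. The summed level of all 4 oligodendrocyte precursor markers (Pdgfra, Cspg4, Gpr17, C1ql1) was 72.1, 242 and 281 CPM in replicates 1, 2 and 3 labelled Bmal1-/-, against 98.5, 263 and 359 CPM in wild type, with none of them at 0 throughout a group. That of 6 astrocyte markers was 3404, 5136 and 5324 CPM in replicates 1, 2 and 3 labelled Bmal1-/-, against 5117, 5564 and 5360 CPM in wild type, again lowest in replicate 1. The sum of 8 neural stem and progenitor markers had replicate 1 highest in both genotypes, at 6701, 4839 and 4923 CPM in libraries labelled Bmal1-/-, against 4668, 3988 and 3726 CPM in wild type. Their part in the members' levels was not tested. In bulk RNA, fewer cells of a type and less RNA per cell cannot be told apart.

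Between sources, Bhlhe40 was the member with the clearest difference. Wild-type callosum held 67.7 to 97.8 CPM, all below the 107 to 376 CPM of wild-type neurospheres, an order that 45.4% of genes tested shared. Bhlhe40 was 3.44-fold lower in wild-type callosum, or -1.78 ± 0.40 on the log2 scale (SE, edgeR adjusted p = 0.00219), and -1.88 ± 0.48 (SE, adjusted p = 0.0109) in libraries labelled Bmal1-/-, which share no library with the wild-type comparison. There too every callosum library lay below every neurosphere library, as for 43.1% of genes. The second call ended without either callosum library (adjusted p = 0.0779 and 0.0814), which left 1 library in that arm, assumed to vary like the others. The sources differ almost throughout: 85.8% of genes were called in wild type, 43.8% as lower, and 72.6% in libraries labelled Bmal1-/-, 37.5% as lower, so the call of Bhlhe40 is not unusual among genes. In GENCODE, Bhlhe40 shares 118 exon bases, 2.51% of its own, with 0610040F04Rik on the opposite strand. Some Bhlhe40 reads held by the counts of single strands were left out of the deposited strandless counts. Whether these reads lie in that overlap was not tested. They made up 1.83% to 5.24% of reads on either strand in neurospheres and 7.43% to 11% in callosum, and each strand counted alone gave -1.68 and -1.76 on the log2 scale in wild type.

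Bhlhe41 in either genotype and Ciart in wild type did not pass the test between sources. The log2 fold change of Bhlhe41, callosum over neurospheres, was -0.03 ± 0.29 in wild type (SE, edgeR adjusted p = 0.93) and 0.29 ± 0.38 in libraries labelled Bmal1-/- (SE, adjusted p = 0.513). Without wild-type neurosphere replicate 1, Bhlhe41 was called lower in wild-type callosum, at -0.36 ± 0.10 (SE, adjusted p = 0.006). Ciart stood at 0.15 ± 0.33 in wild type (SE, adjusted p = 0.682), a value that turned to -0.21 without the same library. Among libraries labelled Bmal1-/-, Ciart was called lower in callosum, at -1.91 ± 0.41 (SE, adjusted p = 0.00488). That call ended without callosum replicate 2 (adjusted p = 0.0528). Of the 18 hypoxia targets, 16 were called lower and 1 higher in wild-type callosum (median log2 fold change -3.07, against -0.06 over all genes tested). Cell types and growth conditions differ with source and cannot be told apart. The labels name oligo dT selection or rRNA depletion without saying which library had which.

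The balance of the DEC paralogues differed by source and not detectably by genotype. Within a library, the ratio of Bhlhe40 to Bhlhe41 counts does not depend on scaling. It was 2.61, 3.92 and 3.04 in neurospheres labelled Bmal1-/-, against 2.20, 3.34 and 2.88 in wild type. In the callosum it was 0.873 and 0.621 in libraries labelled Bmal1-/-, against 1.09, 0.735 and 0.795 in wild type. Every callosum library lay below every neurosphere library. This separation follows the source difference of Bhlhe40 (log2 fold change -1.78 in wild type) beside the small one of Bhlhe41 (-0.03). In wild type 85.8% of genes were called between sources, and the share of gene pairs whose ratio separates by source was not computed. The mean log2 ratio was lower in callosum by a difference of -1.89, callosum minus neurospheres within genotype (exact permutation test, two-sided, p = 0.005, the smallest the 200 arrangements can give), a contrast added after the data were seen. By genotype, the log2 difference was 0.18 in neurospheres and -0.22 in callosum (exact permutation p = 0.5 and 0.6, where neither design can go below 0.1). Over both sources it was -0.02 (exact permutation p = 0.93). Bhlhe41 shares 19.0% of its exon bases with Gm43909, a predicted gene on the opposite strand, not used here, and its strandless count can hold reads of that gene.

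**Figure D4:**
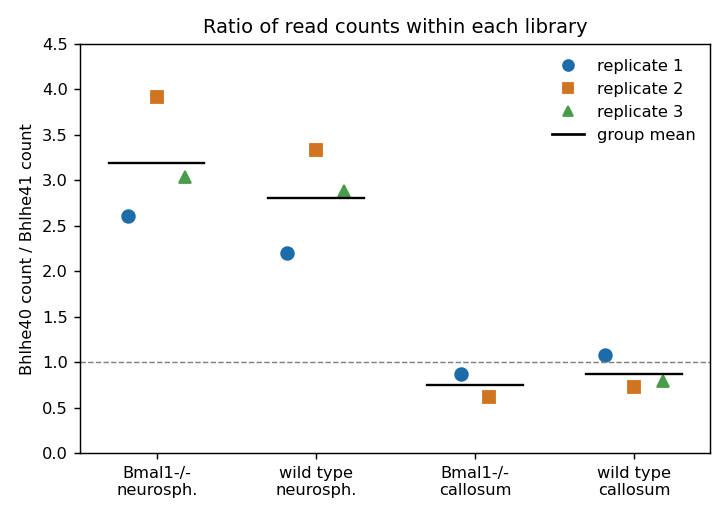
Bhlhe40 count divided by Bhlhe41 count in each library, by group, with symbols for the replicate number, a line at the group mean and a dashed line at 1. Neurosphere libraries lie between 2.20 and 3.92 and callosum libraries between 0.621 and 1.09.

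Per kilobase of the longest GENCODE transcript, Bhlhe40 had the highest mean of the members in each group. It averaged 63.8 ± 31.5 CPM per kb in neurospheres labelled Bmal1-/- and 90.4 ± 48.6 in wild type (SD, n = 3 each), above 94.4% and 97.0% of 12525 genes tested in both sources. In callosum it averaged 16.6 ± 0.437 (SD, n = 2) in libraries labelled Bmal1-/- and 25.4 ± 5.25 CPM per kb (SD, n = 3) in wild type. Bhlhe41 averaged 9.84 to 15.6 CPM per kb over the groups. Ciart was the least abundant, at 1.26 ± 0.416 CPM per kb (SD, n = 2) in callosum labelled Bmal1-/- and 4.89 to 7.04 CPM per kb in the other groups. Over the union of all exons in place of the longest transcript, Bhlhe40 and Bhlhe41 overlapped in callosum labelled Bmal1-/-, at 11.2 and 10.8 CPM per kb for Bhlhe40 and 8.99 and 12.2 CPM per kb for Bhlhe41. By mean CPM, Ciart ran from wild-type callosum through wild-type neurospheres and neurospheres labelled Bmal1-/- to callosum labelled Bmal1-/-, and only the last step separated ranges that did not overlap. For Bhlhe40 the order was wild-type neurospheres, neurospheres labelled Bmal1-/-, wild-type callosum, then callosum labelled Bmal1-/-, and again only the last neighbours did not overlap. Bhlhe41 ran from wild-type neurospheres through wild-type callosum and callosum labelled Bmal1-/- to neurospheres labelled Bmal1-/-, and only the middle neighbours, the callosum groups, did not overlap.

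Set among other clock genes, Ciart lay with those that fell most in the callosum. Of 14 other E-box clock genes tested there, 5 were called lower and 1 higher, with a median log2 fold change of -0.53 against -0.01 over all genes. By smallest adjusted p these were Dbp, which encodes a clock-controlled PAR bZIP activator (-2.87 ± 0.13), Per3, a period gene (-2.23 ± 0.12), Nr1d2, which encodes REV-ERB beta (-2.80 ± 0.25), and the cryptochrome gene Cry1 (1.20 ± 0.16, all log2 and SE). Of 14 genes of the negative limb, which shares the period, cryptochrome and REV-ERB genes with that list, 3 were called lower and 2 higher, the second being Nfil3 (1.35 ± 0.16), a repressor of the genes DBP activates. In neurospheres Nr1d2 was the 1 E-box gene called, at -4.11 ± 0.20, and the list's median was -0.49. Dbp, Per3 and Nr1d1, which encodes REV-ERB alpha, had log2 fold changes there of -1.76, -2.43 and -1.95 without passing, Nr1d1 being named after its values were seen. Ciart, at -0.42 in neurospheres, lay closer to 0 than these.

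**Figure D5:**
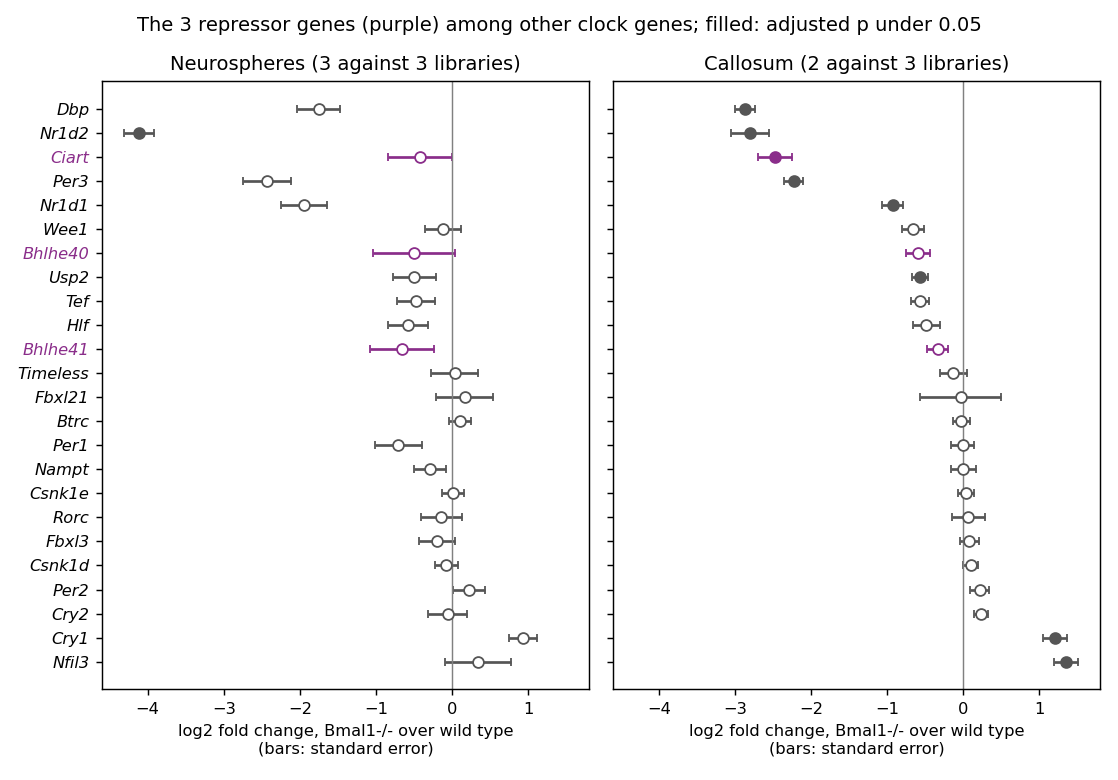
Log2 fold changes by genotype of the 3 members (purple) and 21 other clock genes (grey), neurospheres on the left and callosum on the right, with standard errors as bars, filled points where the edgeR adjusted p is under 0.05, and genes ordered by their callosum value. Ciart sits between Nr1d2 and Per3 in the callosum, while in neurospheres it lies at -0.42, near Bhlhe40 and Bhlhe41.

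Lists of genes linked to the members by family or by known inducers were read beside the share called over all genes, 0.909% in callosum and 0.00716% in neurospheres. At an unadjusted p under 0.05 there were 1969 of 14198 genes in callosum and 422 of 13968 in neurospheres. No list was tested against those rates. Of 10 relatives in the Orange family (the Hes and Hey genes and Helt), 9 were tested in callosum and 5 in neurospheres, and edgeR called none (median log2 fold change 0.24 and 0.17), with 3 and 0 at an unadjusted p under 0.05. Among 18 hypoxia targets, 1 was called in callosum, the glycolytic gene Pgk1 (1.06 ± 0.18, edgeR adjusted p = 0.0356), and none in neurospheres (medians -0.02 and -0.05). Among retinoic acid targets, 1 of 7 tested was called in callosum, Dhrs3, an enzyme that reduces retinal (1.03 ± 0.16, adjusted p = 0.0205), and none of 6 in neurospheres. At an unadjusted p under 0.05 there were 2 hypoxia and 4 retinoic acid targets in callosum, and 1 and 0 in neurospheres. None of 8 corepressor genes was called by edgeR in either source (medians 0.04 and -0.10), with 1 at an unadjusted p under 0.05 in callosum and 0 in neurospheres. In callosum the 6 striatal neuron markers, none called by edgeR and 0 at an unadjusted p under 0.05, all had log2 fold changes below 0 (median -1.07). Their summed level was 697 and 873 CPM in libraries labelled Bmal1-/-, against 692, 2230 and 1282 CPM in wild type, none at 0. That of 5 cortical neuron markers was 9936 and 9117 CPM in libraries labelled Bmal1-/-, against 12010, 8768 and 10229 CPM in wild type, where the highest library was also the highest for Bhlhe40. The part of either in the members' values was not tested.

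The genes whose profile was nearest to each member over the 11 libraries were found by the root mean square difference of log2 CPM, each gene centred on its own mean, among 12952 other genes. For Ciart the nearest was Hif3a, which encodes a hypoxia-inducible factor subunit, at a difference of 0.53, followed by Ifit3 (0.61), Gm12522 (0.63) and Plin4 (0.64). Hif3a averaged 4.93 CPM in callosum labelled Bmal1-/- and 15.3 CPM in wild type, and 18.1 CPM in neurospheres labelled Bmal1-/- and 30.4 CPM in wild type. It was called lower in the callosum (log2 fold change -1.62, edgeR adjusted p = 0.0329), the only 1 of the 4 that was. The search used these same callosum libraries and so favours genes that fall there, and the call is no separate evidence of likeness. For Bhlhe40 the nearest were Tet2 (0.34), Vgll4 (0.34), Chd2 (0.35) and Tmie (0.35). For Bhlhe41 they were Nynrin (0.17), Mxd1 (0.18), Trp53bp2 (0.20) and Rnf24 (0.22). Among the genes nearest to Ciart, Bhlhe41 stood at rank 397 and Bhlhe40 at rank 414, with a difference of 0.87 each. The difference between Bhlhe40 and Bhlhe41 was 0.97, which placed Bhlhe41 at rank 4670 among the genes nearest to Bhlhe40.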

How the data were processed

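The authors deposited raw read counts per gene, 1 table per library. The submitters' processing notes name STAR 2.7.1a and mm10. For the counting step, no annotation is named in the sources used here. Strandless counts were used. Each table opens with 4 rows of unassigned reads, 18.2% to 38.4% of reads, which stayed out of library sizes and tests. A gene with no count may lie at up to 3 counts, which covers counting error only. Replicate pairs differed by 6.85 to 132 in chi-square per degree of freedom, so each library counts once.

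Each comparison used the two-sided quasi-likelihood test of edgeR 4.0.16 (R 4.3.3) with TMM scaling, filterByExpr and Benjamini-Hochberg adjustment over all genes tested, called at an adjusted p under 0.05. SE is the log2 fold change divided by the square root of F. DESeq2 1.42.0, limma-voom (limma 3.58.1), RLE scaling, no filter, single strands, a replicate block, 1 model of all libraries and leaving out each library were alternatives. The ratio test added 0.5 to counts, and the profile search 0.05 to CPM. Positions and promoters are from RefSeq, transcript lengths from GENCODE M21. Besides the members and Arntl, named genes were up to 4 called genes per list with the smallest adjusted p and the 4 nearest profiles. Vegfa, Ddit4, Egln3, Higd1a and Nr1d1 were named after their values were seen. Genes that overlap or resemble a member, or hold an E-box, were named for that alone. The members and lists were chosen with earlier results of these data known.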

Additional observations from a re-analysis of the deposited data

How the results depend on the processing

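The fall of Ciart in the callosum kept its direction under every alternative run, between -2.85 and -2.16 on the log2 scale when 1 callosum library was left out, and missed the threshold in 1 model of all libraries (-2.49, edgeR adjusted p = 0.0609). Bhlhe40 and Bhlhe41 were lower by genotype in each source under every alternative run. With a neurosphere library left out, the genotype difference there ran from -0.77 to -0.16 for Ciart, -0.89 to -0.14 for Bhlhe40 and -0.98 to -0.37 for Bhlhe41. The number of genes called moved more. For neurospheres it was 1, against 5 with no filter, 34 with DESeq2, 2 with limma-voom, 2 on the second strand, 19 in 1 model and 1 to 5 with a library left out. For callosum it was 129, against 224 with no filter, 330 with DESeq2, 33 in 1 model and 27 to 192 with a library left out (27 without wild-type replicate 3, 49 without replicate 1 labelled Bmal1-/-, 73 without wild-type replicate 2). For the interaction it was 2, against 37 with DESeq2, 4 on the second strand and 1 to 10 with a library left out. Over both sources it was 21, against 109 with DESeq2 and 14 to 42 with a library left out.

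Bhlhe41 between sources in wild type (-0.03) reversed with RLE scaling (0.042), DESeq2 (0.043), limma-voom (0.090) and the first strand (0.019), and ran from -0.36 to 0.25 with a library left out. With a library left out, Ciart between sources ran from -0.21 to 0.40 in wild type and from -2.28 to -1.61 in libraries labelled Bmal1-/-. There Bhlhe40 ran from -2.26 to -1.67 and Bhlhe41 from -0.024 to 0.52. The interaction of Bhlhe40 ran from -0.46 to 0.28. The log2 ratio of Bhlhe40 to Bhlhe41 by genotype ran from -0.47 to 0.023 in callosum and from -0.14 to 0.10 over both sources, where the second strand gave 0.023. The exact tests over both sources ran from -1.68 to -1.26 for Ciart, -0.82 to -0.26 for Bhlhe40 and -0.72 to -0.31 for Bhlhe41. The cause of these changes was not tested.

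The labels do not say whether equal replicate numbers mark paired samples, and the main tests took the libraries as unpaired. The correlation of deviations between equal numbers was 0.283, -0.011 and 0.343 in neurospheres and 0.064 and 0.030 in callosum. Between unequal numbers in neurospheres it ran from -0.416 to 0.326. Replicates 1 and 3 labelled Bmal1-/- correlated best there with the wild-type library of equal number, and replicate 2 with wild-type replicate 3 (0.106). Pairing in neurospheres is therefore not settled. In callosum, unequal numbers ran from -0.064 to 0.048. The 2 libraries labelled Bmal1-/- there deviate from their mean by opposite amounts. Their correlations therefore mirror each other and cannot settle pairing in callosum. With a replicate block, 2 genes were called in neurospheres, 131 in callosum, 1 in the interaction and 7 over both sources. In neurospheres the block gave -0.46 ± 0.18 for Bhlhe40 and -0.64 ± 0.16 for Bhlhe41 (SE, edgeR unadjusted p = 0.0371 and 0.00578). Ciart stood there at -0.34 ± 0.24 (SE, unadjusted p = 0.203). Over both sources Bhlhe40 and Bhlhe41 stood at -0.54 ± 0.12 each (SE, edgeR unadjusted p = 0.00136 and 0.00124). No member passed over all genes in either fit (edgeR adjusted p = 0.257 to 0.667). Under the block Ciart in the callosum stood at -2.47 (edgeR adjusted p = 0.00122), and Bhlhe41 between sources in wild type reversed to 0.080. The 27 and 43 reads of Ciart in callosum labelled Bmal1-/- limit the precision of its level there.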

Other observations

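Ciart was also set beside the other genes whose promoter window holds CACGTG repeatedly. Of 13 genes with at least 3 in the window that were tested in the callosum, edgeR called 1, Ciart (median log2 fold change 0.09). In that class 3 genes, Ciart among them, had an unadjusted p under 0.05. Of 85 genes with 2, edgeR called 0, with 7 at an unadjusted p under 0.05 (median 0.015). Of 949 genes with 1, 5 were called lower and 3 higher, 0.843% in all, against 1.03% of 9696 genes with none. At an unadjusted p under 0.05 there were 121 and 1361 genes in these 2 classes, and the classes were not tested against each other.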
